A study of Mus musculus with 6 samples.

Results

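The glial cell line-derived neurotrophic factor (GDNF) family ligands and receptors are followed here in the auditory nerve of young and old mice. The genes are the ligands Gdnf, Nrtn and Artn, the co-receptors Gfra1, Gfra2 and Gfra3, and the receptor kinase Ret. They were taken by gene symbol, and all 7 have a row among the 17607 genes of the deposited table. The nerve was dissected from the cochlea of CBA/CaJ mice, an inbred strain widely used in hearing research, and RNA was sequenced from 3 young mice, at an age of 2 months, and from 3 old mice, at an age of 2.5 years. The labels give no treatment or genetic change in either group, and the tissue of both ears of a mouse made 1 library. Reads counted in the listed genes, as recovered from the deposited values, came to 34587979 to 40841478 per library.

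Ligands of this family are secreted proteins that bind a co-receptor held to the membrane by a lipid anchor, and the pair then engages RET, a receptor tyrosine kinase that signals inside the cell. Each ligand has a preferred co-receptor: GDNF binds the product of Gfra1, neurturin (Nrtn) that of Gfra2, artemin (Artn) that of Gfra3 and persephin (Pspn) that of Gfra4. The pathway supports the survival of sensory, autonomic and motor neurons, and GDNF has been studied as a survival factor for the spiral ganglion neurons whose axons form the auditory nerve.

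The tissue carried the markers its label calls for. Snap25, a neuronal synaptic protein, stood at 62570 to 107390 normalised reads in the 6 libraries, and Prx (periaxin), a protein of myelinating Schwann cells, at 18634 to 30930. All 7 hair cell markers on a list of cochlear cell types were listed above 0 in every library (summed level 2461 to 5776 in young and 2050 to 4392 in old nerves), as were the 7 supporting cell markers (38323 to 55933 and 53436 to 76876). Being above 0 is common here, as 17271 to 17460 of the 17607 genes were above 0 in each library. By the levels given, the libraries hold RNA of many cell types. In them fewer cells of a type and less RNA per cell cannot be told apart. Values are normalised read counts, that is reads divided by 1 size factor per library, unless a level per length is named.

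In old nerves Gfra1 rose about 1.51-fold, and none of the other 5 members that could be tested passed the test in either direction. Ligand transcripts and Gfra2 had overlapping values at both ages, Ret had a lower mean in old nerves that did not pass, and Gfra3 was close to absent. Over all genes 34.6% passed an adjusted p under 0.05 (limma, 5493 of 15882), 15.9% as higher and 18.7% as lower in old nerves. The family, with 1 of 6 tested genes passing, therefore had no more calls than that background. None of the 6 was lower by limma, edgeR (which called 18% of all genes lower) or DESeq2 (20.5%), and none was lower at an unadjusted p under 0.05 in any of the 3 tools.

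**Figure D1:**
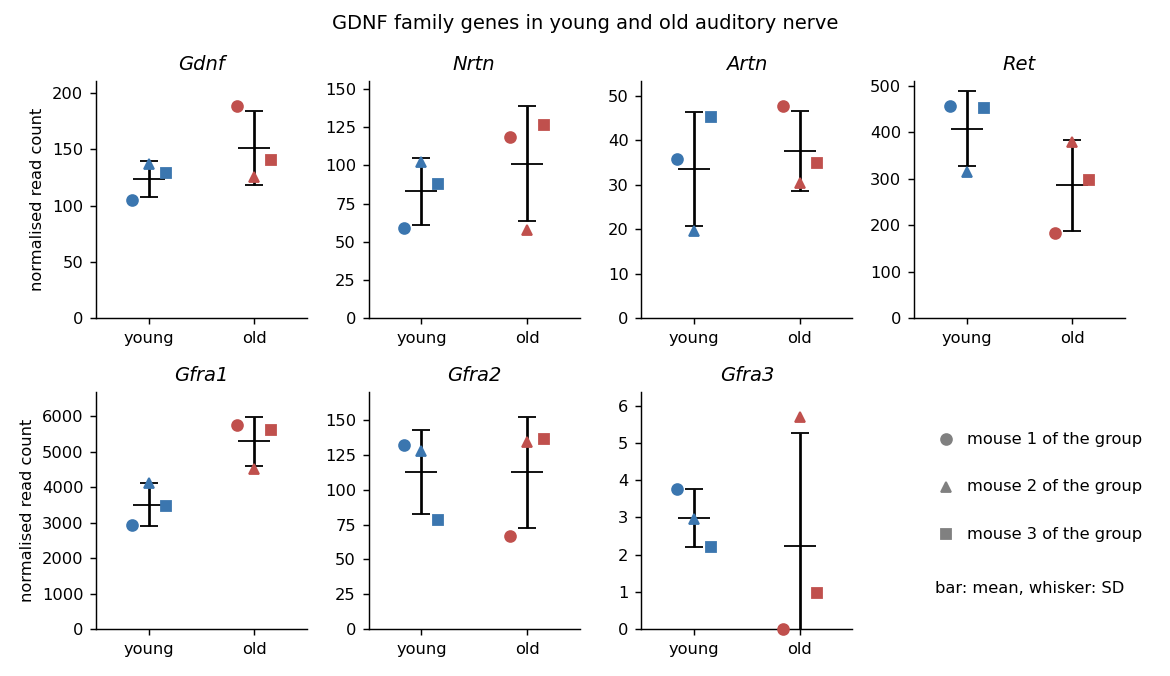
Normalised read count of each family gene (vertical axis, from 0) in the 3 young (blue) and 3 old (red) mice, with a symbol per mouse, the mean as a bar and the SD as a whisker (cut at 0 for Gfra3). The groups are apart in Gfra1, where young mice sit between 2926 and 4127 and old mice between 4503 and 5758, and they overlap in the other 6 genes.

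Gfra1, the co-receptor for GDNF, lies on chromosome 19 from 58235581 to 58455398 on the minus strand (mm10). Its values were 2926, 4127 and 3476 in the young mice, taken in the order 1, 2 and 3. In the old mice they were 5758, 4503 and 5619. Every old mouse thus lay above every young mouse, old 2 being the lowest of the old and young 2 the highest of the young, and 25.5% of all tested genes were separated in this direction. The mean went from 3510 ± 601 to 5293 ± 688 (SD, n = 3 per group), a log2 fold change of 0.60 ± 0.15 (SE) with a 95% interval from 0.26 to 0.94 (limma, adjusted p = 0.020). The authors' deposited table gives the same gene an FDR of 0.00116. The rise did not pass in limma when young 1 (adjusted p = 0.0518), young 3 (0.0627) or old 1 (0.0622) was left out, while the log2 fold change stayed between 0.47 and 0.72. With smooth trends in transcript length and GC content taken out of each library it was 0.72 (adjusted p = 0.0217). An antisense gene, Gm16277, shares 416 of the 5476 exonic bases of Gfra1 in the annotation, and no source used here states whether counting used strand, so reads from the shared bases cannot be assigned to either gene.

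**Figure D2:**
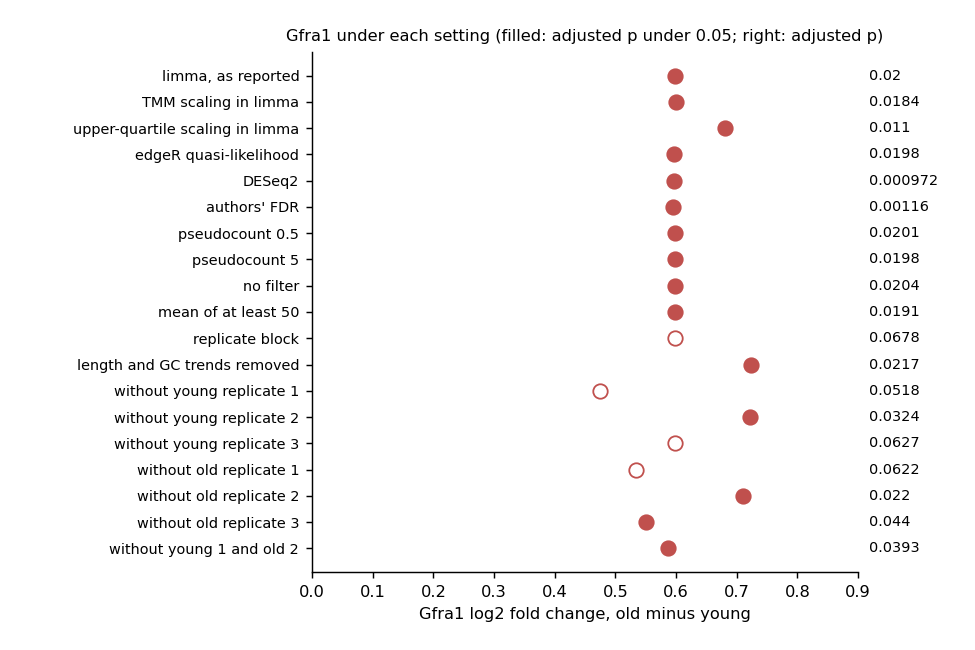
Log2 fold change of Gfra1, old minus young (horizontal axis), under the test reported here and each alternative setting (rows), with its adjusted p at the right. All points lie above 0, from 0.47 to 0.72, and the 4 open circles mark settings with an adjusted p of 0.05 or more.

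Marker levels of several cell types also differed between the ages. The summed level of 12 neuron markers was 358987 to 394983 in young and 214004 to 320003 in old nerves. Of these genes 4 fell and none rose in limma, or 33.3% against 34.6% of all tested genes. None of the neuron markers passed as higher by edgeR or DESeq2 either, and Prph had the highest log2 fold change of the list at 0.32 (limma, adjusted p = 0.151). The 9 markers of myelinating Schwann cells summed to 220433 to 237335 and to 172739 to 176603, and 4 fell and 1 rose (55.6%). Macrophage markers, 6 of 8 of which rose (75%), summed to 3797 to 5056 in young and 7524 to 11376 in old nerves. The supporting cell markers gave 38323, 48783 and 55933 in the young mice. They gave 76876, 58536 and 53436 in the old mice. In that list young 1 was the lowest and old 1 the highest library, as in Gfra1, but the groups overlapped. Of its 7 genes 1 rose (14.3%). Summed erythroid markers were at 2250, 4223 and 3225 in young 1, 2 and 3. They were at 10060, 3254 and 15422 in old 1, 2 and 3. Here too young 1 was the lowest of all, young 2 the highest young and old 2 the lowest old library, as in Gfra1, while old 2 fell among the young. Osteoblast markers went the other way, from 4284 to 5505 in young to 2162 to 3629 in old nerves, and 4 of 6 fell (66.7%). Of 10 glia and nonmyelinating Schwann cell markers 1 rose and 4 fell (50%). They summed to 148633 to 169766 in young and 159284 to 177253 in old nerves. Fibroblast markers gave 53678 to 61663 and 33745 to 66664, and 3 of 9 fell (33.3%). Endothelial markers gave 11655 to 12521 and 11448 to 12296, and 1 of 6 fell (16.7%). Pericyte and smooth muscle markers gave 16457 to 20217 and 13299 to 14750, and 3 of 7 fell (42.9%). The part of these cell types in the rise of Gfra1 was not tested.

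Gfra2, the co-receptor for neurturin, is on chromosome 14 from 70890107 to 70979840 on the plus strand. It stood at 133, 128 and 78.2 in young 1, 2 and 3. The old mice had 66.6, 135 and 136. Both groups held 2 mice near 130 and 1 well below, and the means were 113 ± 30.1 and 113 ± 39.8 (log2 fold change -0.04 ± 0.34, 95% interval -0.84 to 0.77, limma adjusted p = 0.944). The interval spans changes of the size seen in Gfra1 in either direction, so a like rise or fall of Gfra2 was not detectable here.

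Gfra3, the co-receptor for artemin, lies on chromosome 18 from 34689898 to 34720387 on the minus strand. It was covered by 4, 3 and 2 reads in the young mice and by 0, 6 and 1 reads in the old mice, numbered as above. With a total of 9 reads in young and 7 in old nerves it was below the filter on low counts and was not tested. The 0 reads of old 1 allow a level of up to 3.17 normalised reads (3 counts, counting error only), which is within the range of the young mice, 2.20 to 3.76. Artemin's preferred co-receptor was thus near the limit of detection at both ages.

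Ret encodes the kinase through which all these co-receptors signal and lies on chromosome 6 from 118151748 to 118197744 on the minus strand. Young 1, 2 and 3 had 455, 314 and 451. Old 1, 2 and 3 had 183, 378 and 297. The highest old mouse exceeded the lowest young mouse, and the lowest value of all was that of old 1, which had the highest Gfra1. The means were 407 ± 80.7 and 286 ± 97.9 (log2 fold change -0.55 ± 0.28, 95% interval -1.21 to 0.11), and the difference did not pass (limma, adjusted p = 0.167; 0.164 as FDR in the authors' deposited table). Leaving out 1 library at a time gave adjusted p-values of 0.0727 to 0.402, and without old 1 the log2 fold change was -0.26. Summed neuron markers were at 394983, 361879 and 358987 in young 1, 2 and 3. They were at 214004, 269220 and 320003 in old 1, 2 and 3. Young 1 was thus highest and old 1 lowest in both Ret and this sum, whereas young 3 exceeded young 2 and old 2 exceeded old 3 in Ret but not in the sum. Whether neuron content bears on Ret was not tested.

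Among the ligands, Gdnf is on chromosome 15 from 7810048 to 7837580 on the plus strand. It measured 105, 137 and 129 in young 1, 2 and 3. It measured 188, 125 and 140 in the old mice. Old 1 and old 3 were above all young mice, and old 2 fell among them. The means of 124 ± 16.3 and 151 ± 32.9 gave a log2 fold change of 0.28 ± 0.20 (95% interval -0.20 to 0.76, limma adjusted p = 0.324). It was 0.11 without old 1 and 0.17 without young 1.

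Nrtn, the gene of neurturin, lies on chromosome 17 from 56751323 to 56757548 on the minus strand. Its values were 59.2, 102 and 88.1 in young mice. Old mice had 118, 57.9 and 127. Old 1 and old 3 exceeded the young mice while old 2 had the lowest value of all (log2 fold change 0.23 ± 0.35, 95% interval -0.60 to 1.06, limma adjusted p = 0.637). With 1 library left out the log2 fold change of Nrtn ran from 0.0085 (without young 1) to 0.59 (without old 2), and it was 0.51 with length and GC trends removed. Artn, the gene of artemin, on chromosome 4 from 117926160 to 117929763 on the minus strand, was the least abundant of the ligands. It had 35.7, 19.7 and 45.1 in young 1, 2 and 3. It had 47.6, 30.4 and 34.8 in old 1, 2 and 3, within or just above the young range (log2 fold change 0.21 ± 0.37, 95% interval -0.65 to 1.08, limma adjusted p = 0.680). Old 1 held the highest value of Gdnf and Artn and the second highest of Nrtn, and old 2 the lowest old value of each.

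**Figure D3:**
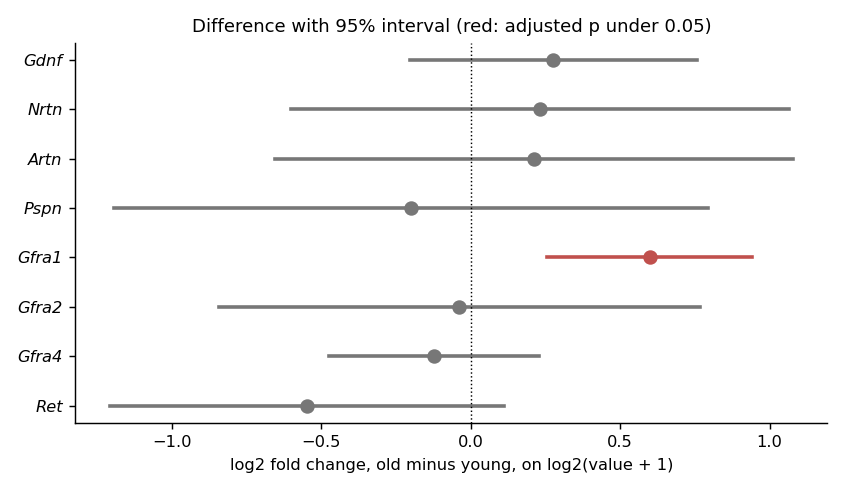
Log2 fold change, old minus young (horizontal axis), with its 95% interval for the 6 tested members and for Pspn and Gfra4, the remaining ligand and co-receptor of the family. The interval of Gfra1, from 0.26 to 0.94, lies above 0, and the other 7 intervals include 0.

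Read counts differed widely between the members. The ligands and Gfra2 were each covered by 20 to 178 reads per library, against 3112 to 5810 for Gfra1 and 173 to 484 for Ret. In Artn counting alone gives a coefficient of variation of 17.4% in young and 16.3% in old mice, and the observed ones were 38.5% and 23.8%. For Ret counting gives 4.97% and 5.85% against observed values of 19.8% and 34.2%, and for Gfra1 1.69% and 1.37% against 17.1% and 13.0%. Nrtn had 9.93% from counting against 37.2% observed in old mice, and Gfra2, young and old, 9.37% and 9.31% against 26.7% and 35.4%. In Gdnf the counting values of 9.03% and 8.12% stood against 13.2% and 21.7%. The spread between mice of a group was thus wider than counting error alone in each of these 6 genes.

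Dividing each value by the length of the gene's longest coding transcript allowed the members to be ranked against each other. On this scale of normalised reads per kilobase, Gfra1 was the most abundant family gene, at 756 ± 129 in young and 1141 ± 148 in old nerves (n = 3), and stood at the 80.0th percentile of tested genes. Gfra4 followed at 298 ± 37.7 and 274 ± 42.4. Nrtn (81.3 ± 21.4 in young nerves) and Ret (74.5 ± 14.8) had overlapping ranges, as did Gdnf (33.6 ± 4.44), Gfra2 (32.5 ± 8.67), Pspn (29.0 ± 13.0) and Artn (15.4 ± 5.92), each with the next. Ret stood apart from Gdnf in young nerves, whereas in old nerves, where Ret was at 52.4 ± 17.9 and Gdnf at 41.2 ± 8.95, their ranges overlapped. Gfra3 was lowest, at 1.49 ± 0.39 and 1.11 ± 1.53. The order of the 9 genes by mean was the same at both ages. Ret stood at the 19.3rd percentile of tested genes per length and Artn at the 7.98th.

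**Figure D4:**
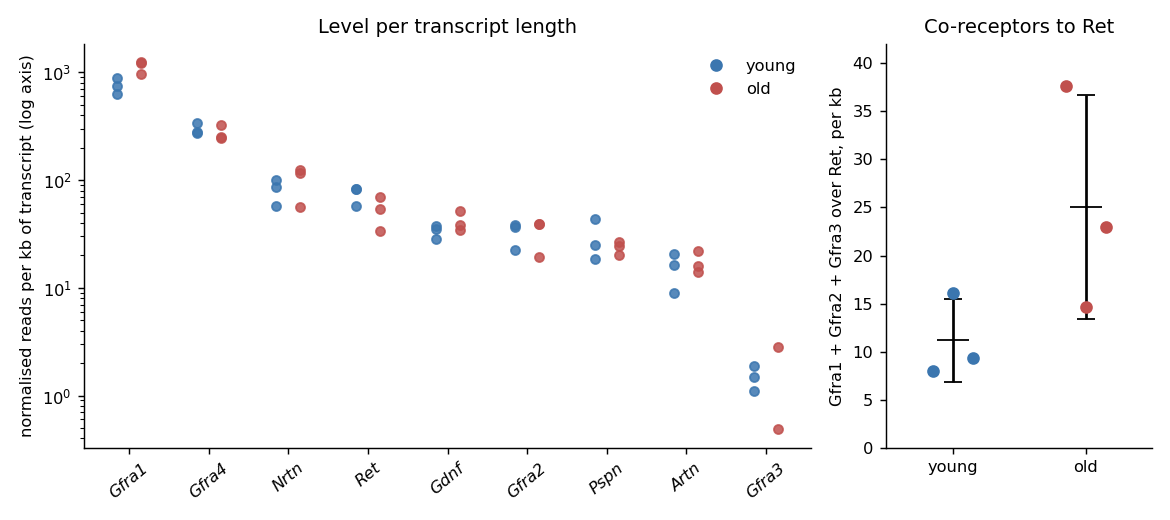
Left, normalised reads per kilobase of transcript (log axis) of the 9 family genes in each young (blue) and old (red) mouse, with Gfra3 of old 1, listed at 0, not drawn. Right, the summed level per kilobase of Gfra1, Gfra2 and Gfra3 over that of Ret, with the mean as a bar and the SD as a whisker; it is 8.04 to 16.1 in young and 14.6 to 37.6 in old mice, and the groups overlap.

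Gfra1 made up nearly all co-receptor transcript among Gfra1, Gfra2 and Gfra3. Gfra4, at 298 in young and 274 in old nerves on the same scale beside 756 and 1141 for Gfra1, is not part of this sum. With Gfra4 included the share of Gfra1 would be lower, and whether that share differs between the ages was not tested. The share of Gfra1 in the sum of these 3 genes per length was 94.0%, 95.9% and 96.9% in young 1, 2 and 3. It was 98.5%, 95.9% and 96.8% in old 1, 2 and 3. The means of 95.6% ± 1.48 and 97.1% ± 1.31 did not differ beyond their spread (exact two-sided permutation test, p = 0.4, and 0.5 adjusted over the 3 shares). Gfra2 took 4.19% ± 1.40 and 2.83% ± 1.19 (exact p = 0.4), and Gfra3 0.194% ± 0.0754 and 0.107% ± 0.153 (exact p = 0.5). With 3 mice against 3 the exact test cannot go below p = 0.1.

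The ratio of these co-receptors, Gfra4 again left out, to the kinase had a higher mean in old nerves, but the ages overlapped. The sum of Gfra1, Gfra2 and Gfra3 per length was 8.04, 16.1 and 9.34 times that of Ret in young 1, 2 and 3. In old 1, 2 and 3 it was 37.6, 14.6 and 23.0 times that of Ret. Old 1 and old 3 exceeded all young mice, and old 2 was below young 2. The mean ratio was 11.2 ± 4.35 in young and 25.1 ± 11.6 in old mice, a difference of 13.9 that did not pass (exact two-sided permutation test, p = 0.2). Without old 1 the difference was 7.63.

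The remaining family genes did not pass either. Gfra4, the co-receptor for persephin, had 486, 388 and 399 in the young mice and 359, 352 and 460 in the old mice, so the groups overlapped (log2 fold change -0.12 ± 0.15, 95% interval -0.47 to 0.23, limma adjusted p = 0.550). Pspn itself was at 8.81 to 20.7 in young and 9.49 to 12.6 in old mice (-0.20 ± 0.42, adjusted p = 0.741). Gas1, a membrane protein related to these co-receptors, was at 1982 ± 338 and 2376 ± 557 (0.25 ± 0.19, adjusted p = 0.322).

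Genes that act with or on RET were read from 6 lists of 70 genes, of which 63 could be tested. Of these, 6 were higher and 15 lower in old nerves, or 33.3% against 34.6% of all tested genes, with a median log2 fold change of -0.09 against -0.00080 over all genes. With upper-quartile scaling, which moves the median of all genes to 0.08, 10 were higher and 12 lower, beside 3439 and 2338 of all 15882 genes. Once length and GC trends were taken out 10 were higher and 9 lower, beside 1521 and 1888 of 14896 genes. Without young 2 the count that passed was 9, without young 3 or old 1 it was 11, and it was again 9 when young 1 and old 2 were both absent. Among the called genes of the 6 lists 7 passed in each of the 6 fits with 1 library left out: Shc2, Grb7, Sos1, Plcg1, Dusp6, Cbl and Cblc. They also passed with upper-quartile scaling and after removal of the length and GC trends, which brought Cbl from -0.81 to -0.45, Plcg1 from -0.60 to -0.34 and Shc2 from -0.74 to -0.48. Grb7 missed the threshold without young 1 and old 2 (adjusted p = 0.0610).

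Of the 27 adaptors and effectors of RET 9 were lower, 1 was higher and 17 did not pass, beside 18.7% lower and 15.9% higher over all genes. Of the 9 only Shc2, Grb2, Sos1 and Plcg1 still passed with length and GC trends removed, while Frs2, Gab2, Akt1 and Shank3 did not and Src was at 0.0043. Sos1, an exchange factor that activates RAS, went from 4556 ± 629 to 2447 ± 344 (log2 fold change -0.90 ± 0.13, limma adjusted p = 0.00563). The adaptor Shc2 went from 2837 ± 77.2 to 1718 ± 289 (-0.74 ± 0.12), and the phospholipase Plcg1 from 3886 ± 111 to 2572 ± 187 (-0.60 ± 0.07). Grb7, an adaptor that binds phosphorylated receptors, was the single gene of that list to rise, from 192 ± 27.2 to 426 ± 132 (1.11 ± 0.22, adjusted p = 0.0114). These adaptors serve many receptors besides RET.

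Of 14 inhibitors of RET signalling 3 rose and 3 fell, or 42.9% against 34.6% of all tested genes. Dusp6, a feedback phosphatase, rose from 683 ± 21.4 to 1171 ± 29.6 (log2 fold change 0.78 ± 0.07, limma adjusted p = 0.00399), as did the ubiquitin ligase gene Cblc (1.07 ± 0.22) and Spry1, a feedback inhibitor of receptor kinases (0.54 ± 0.13). Spry4 (-1.14 ± 0.26), Dusp4 (-0.80 ± 0.21) and Cbl, a ubiquitin ligase of active receptors (-0.81 ± 0.07), fell. The paralogs Spry1 and Spry4, Dusp6 and Dusp4, and Cblc and Cbl thus passed in opposite directions. Of 7 other partners of GDNF or RET, 42.9% passed. The receptor kinase gene Met rose (0.49 ± 0.13), and the N-cadherin gene Cdh2 (-0.68 ± 0.15) and the heparan sulfate proteoglycan gene Sdc3 (-0.47 ± 0.15) fell. Sdc3 was at -0.068 (adjusted p = 0.774) with length and GC trends removed and missed the threshold with upper-quartile scaling (0.0670). Ncam1, an alternative receptor for GDNF bound to the product of Gfra1, was at -0.31 ± 0.11 and did not pass (adjusted p = 0.0577). Among 6 tested transcription factors that respond to RET, 16.7% passed. Etv1 rose (0.39 ± 0.11) while Etv4 (0.16 ± 0.28) and Etv5 (-0.19 ± 0.28) did not pass. Of 6 tested factors linked to Ret transcription 1 passed (16.7%). It was Sox10, a glial factor that fell (-0.48 ± 0.14, adjusted p = 0.0338, and -0.18 with adjusted p = 0.376 when length and GC trends were removed). Of the genes named in this group, Spry4 missed the threshold without old 1 (limma adjusted p = 0.0512), Cdh2 without young 2 (0.0534) and Spry1 without young 1, young 2 or old 1 (up to 0.0743). Sox10 missed it without young 2, young 3, old 1 or old 2 (up to 0.111), Dusp4 in the fits without each library other than old 2 (up to 0.0768), Met and Etv1 without each other than old 3 (up to 0.0798 and 0.0989), and Sdc3 without each other than young 3 (up to 0.119). Without both young 1 and old 2, Cdh2, Spry1, Met, Etv1 and Sdc3 missed it (0.0789 to 0.206).

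**Figure D5:**
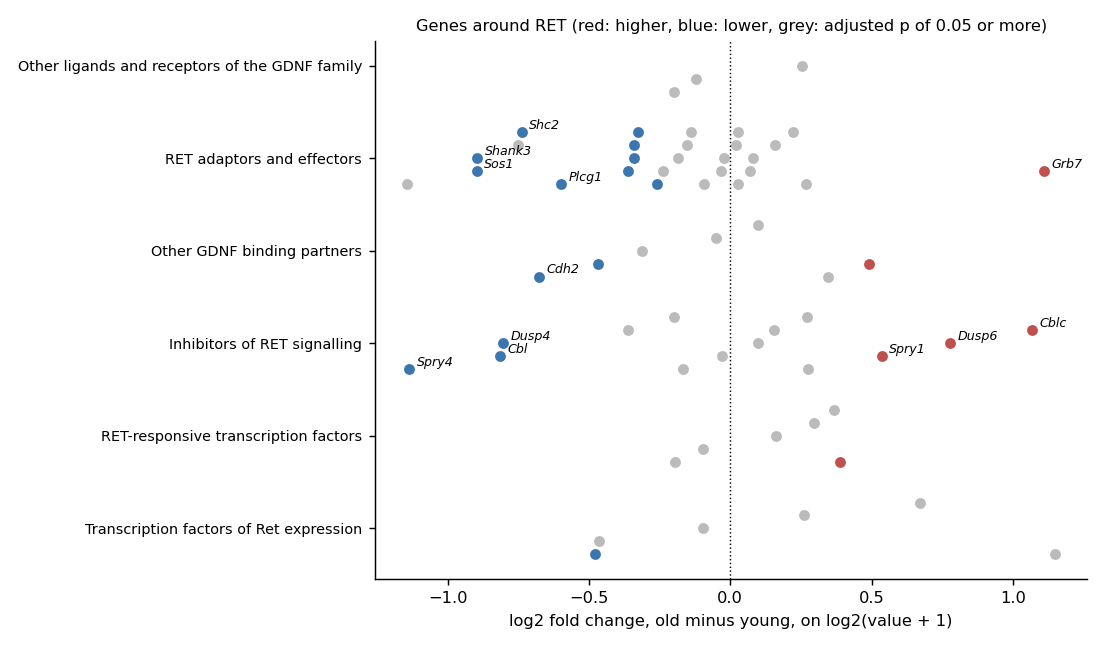
Log2 fold change, old minus young (horizontal axis), of the 63 tested genes that act with or on RET, in 6 lists (rows; points are spread vertically for legibility). Red points (6) were higher and blue points (15) lower in old nerves at an adjusted p under 0.05, and grey points did not pass; called genes beyond 0.5 in either direction are named.

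Other growth factor families of the nerve gave a comparison. Of 9 neurotrophin genes and receptors, 4 were lower and 1 higher in old nerves, or 55.6% against 34.6% of all tested genes. Among the lower were the receptor genes Ntrk2 (log2 fold change -0.67 ± 0.13, limma adjusted p = 0.00984) and Ngfr (-1.15 ± 0.18). The higher one was the ligand gene Ntf5, at 8.81 to 14.7 in young and 21.3 to 32.8 in old mice (1.31 ± 0.36, adjusted p = 0.0294), which passed in a single one of the leave-one-out fits, that without old 3. Of 8 neuregulin and ErbB genes 3 were lower (37.5%), Nrg1, Nrg3 and Erbb3, and none was higher in limma, edgeR or DESeq2, nor at an unadjusted p under 0.05 in limma. Of these genes Ntrk2, Ngfr, Nrg1 and Nrg3 passed in each fit with 1 library left out. The count of both families together, 8 of 17, was 4 without young 2 or young 3 and 5 without old 1. Calls over all genes went from 5493 to 2589, 3077 and 3731 without young 2, young 3 and old 1. Erbb3 missed the threshold in 2 of those fits (up to 0.0756) and with length and GC trends removed (-0.29, adjusted p = 0.169). Ntrk2 missed it with the trends removed (-0.35, adjusted p = 0.0583) and without young 1 and old 2 (0.0569), where Nrg1 did not pass either (0.0573). Whether these families differ from the GDNF family was not tested.

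Genes with the profile most like each member were sought by the root mean square difference of the centred log2(value + 1) values over the 6 libraries, among 14462 tested genes at least as abundant as Artn. The likeness takes in the difference between the ages, so the neighbours' own fold changes are no separate result. Nearest to Gfra1 were Bcl2l1 (0.062), Fads3 (0.063) and Hspb6 (0.065), and nearest to Ret were Tymp (0.098), Col26a1 (0.10) and Kcp (0.11). Gdnf was closest to Mtf2 (0.056), Myl1 (0.061) and Zfp809 (0.062). Nrtn was closest to Slc39a2 (0.11), Emilin2 (0.13) and Tead4 (0.16), and Artn to Stum (0.13), 1700047M11Rik (0.17) and Tmc1 (0.18). Gfra2 had its nearest genes in Ndufa4l2 (0.18), Pgam2 (0.18) and Cyp4x1os (0.19).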

How the data were processed

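The submitters' processing notes name TopHat2, Partek and DESeq2 and the mm10 build, with no versions or settings. The deposited signal is each gene's read count divided by 1 size factor per library, as the values show: dividing by the value of 1 read (0.940 to 1.10) gave whole reads within 0.1 for 99.93% to 99.97% of values above 0. Per the file headers, the deposited table also holds p-values, an FDR and a signed fold score from the authors' test. End positions are the deposited stop less 1.

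The test was limma (3.58.1) with trended variances on log2(value + 1). It was two-sided, and p-values were adjusted by Benjamini-Hochberg over 15882 genes that edgeR's filterByExpr kept (minimum count 10, minimum total 15). Alternatives were edgeR (4.0.16) and DESeq2 (1.42.0) on recovered reads, other scalings, pseudocounts and filters, the replicate block, each library left out, and removal of length and GC trends (mgcv 1.9.3; longest coding transcript in GENCODE M21, matched by symbol for 93.8% of tested genes). The fit without young 1 and old 2, which lie together on the second principal component, was added after seeing the data. edgeR called 5418 genes, 5324 of them shared with limma. Steps were tested on simulated counts. There the test recovered 37.8% of true 1.5-fold changes, 86.7% of 2-fold and 100% of 4-fold changes, with 10 false calls among 153. The spread of the simulated counts was a fixed setting and was not taken from these mice. Permutation tests used scipy (1.17.1).

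Members and lists were chosen with earlier results of these data known. Named are all members, the called pathway genes or those with the smallest p in a list, and the 3 tested genes nearest to each member in profile; marker and comparison genes, and Etv4, Etv5 and Ncam1, are named for their values.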

Additional observations from a re-analysis of the deposited data

How the results depend on the processing

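Gfra1 was higher under every setting run and passed in all but the replicate block and the fits without young 1, young 3 or old 1, where the count of members that passed was 0; over the fits with 1 library left out that count was 0 to 1. With the replicate number as a block, limma gave Gfra1 an adjusted p of 0.0678 and called 0 members, 9 pathway genes, 4 genes of the comparison families and 2711 genes in all. Same-numbered libraries deviated from their group means with correlations of -0.29, -0.41 and -0.050. The labels name no pairing, and these values cannot tell whether same-numbered libraries shared a preparation. With length and GC trends removed 3409 genes passed. Without both young 1 and old 2 the counts were 1776 in all, 9 pathway genes and 4 comparison genes. Leaving out 1 library gave 2589 to 6117 genes in all, 9 to 26 pathway genes and 4 to 9 comparison genes. Upper-quartile scaling split all calls into 3439 higher and 2338 lower, against 2524 and 2969.

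Sign changes, all at an adjusted p of 0.05 or more, were seen in Gfra2 (0.044 with upper-quartile scaling, 0.043 with the trends removed, -0.28 to 0.30 with 1 library left out), Artn (-0.12 to 0.46), Pspn (-0.45 to 0.12, and 0.22 without young 1 and old 2) and Gfra4 (0.048 without both). With the trends removed Src was at 0.0043 and Sort1 at 0.057, both lower otherwise. The cause was not tested. In the ligands and Gfra2, covered by 20 to 178 reads per library, both the counting error and the spread between mice limit what can be seen.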

Other observations

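GDF15 signals through GFRAL, a distant relative of the GDNF co-receptors that also engages RET. Gdf15 was listed at 3.30 to 9.83 normalised reads in young and 7.40 to 12.3 in old nerves, and Gfral at 0 to 4.70 and 1.06 to 2.85. Both were below the filter on low counts and were not tested.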
